A study of Mus musculus with 42 samples.

Results

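The keratin gene family was followed across sorted mouse thymic epithelial cells (TEC). Its members were the genes of the count table whose Ensembl identifier carries a keratin symbol (Krt with a number), with the 1 pseudogene left out. They came to 53 of 53465 genes, 28 of type I and 25 of type II. The study deleted the transcriptional cofactor SKI in TEC and sequenced RNA from 200 sorted cells per library. It sampled 3 subsets, namely cortical TEC (cTEC, sorted as Epcam+ CD45- UEA- Ly51+), MHCII-low medullary TEC and MHCII-high medullary TEC (mTEC, both sorted as Epcam+ CD45- UEA+ Ly51 low). Each subset came in 3 genotypes named Control, KO and Ski flox Control, with 5, 7 and 2 libraries. The design text calls the deletion TEC specific. The sources used here give neither the Cre line, nor the age of the mice, nor what the plain Controls carry beyond that name.

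Keratins are the intermediate filament proteins of epithelial cells. A filament is built from pairs of a type I (acidic) and a type II (basic) chain, and each epithelium uses its own set: Krt8 with Krt18 in simple epithelia, Krt5 with Krt14 in the basal layer of stratified epithelia, Krt1 with Krt10 above it, and further sets in oral lining, cornea, hair and nail. In the thymus Krt8 and Krt18 are the usual marks of cortical epithelium and Krt5 and Krt14 of medullary epithelium, and mTEC are known to transcribe many genes of other tissues at low frequency.

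Control replicate 2 of each mTEC subset, with 82 and 41828 counts, was left out, which leaves 4 Control libraries there. The other 40 held 3217251 to 7068077 counts. By library number 19 of them formed a lower (early) and 21 a higher (late) run. No label names this as a batch, and all 6 Ski flox Control libraries were late. Ski itself had a median of 18.4 CPM (a gene's counts scaled to library size) in Control and 10.4 CPM in KO cTEC, 23.1 and 6.03 CPM in MHCII-low cells, and 11.1 and 6.40 CPM in MHCII-high cells. Its ranges overlapped in each subset, and the counts do not show which exons were deleted. The summed level of 10 cortical markers was 2427 to 24307 CPM in the cTEC libraries of the Control and KO groups and 670 to 4254 CPM in the mTEC libraries of those groups. That of 11 medullary markers overlapped between cTEC and MHCII-low libraries. In Control it was 183 to 1214 CPM in cTEC, 969 to 1634 CPM in MHCII-low and 2089 to 3095 CPM in MHCII-high cells. In KO it was 146 to 1685 CPM, 754 to 1872 CPM and 2045 to 3325 CPM. Thymocyte markers (10 genes) summed to 582 to 4701 CPM in Control and KO cTEC, 71.9 to 2984 CPM in MHCII-low and 11.7 to 1065 CPM in MHCII-high libraries. In the same order, myeloid markers (10 genes) summed to 221 to 4997.5, 733 to 6777 and 1289 to 3754 CPM. Fibroblast markers (10 genes) summed to 6.47 to 6357, 62.3 to 502 and 37.1 to 244 CPM. Endothelial markers (10 genes) summed to 50.6 to 761, 23.6 to 1243 and 26.7 to 142 CPM, and B cell markers (8 genes) to 0.230 to 1078, 66.0 to 1069 and 73.2 to 432 CPM. None of the cortical or thymocyte markers was at 0 throughout a group, and the part of all these markers in the results below was not tested. In bulk libraries, fewer cells with a transcript and less of it per cell cannot be told apart.

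Krt18, Krt8 and Krt17 were the 3 most abundant keratins in every subset when levels were divided by exon length. In cTEC the medians per kilobase were 753 CPM for Krt18, 239 CPM for Krt8 and 139 CPM for Krt17 (n = 14 libraries). In MHCII-low cells they were 1013, 732 and 330 CPM (n = 13). In MHCII-high cells Krt17, a keratin of skin appendages and activated epidermis, came first with 904 CPM, ahead of Krt18 with 856 CPM and Krt8 with 658 CPM (n = 13), and the ranges of the 3 genes overlapped. The next places went to Krt5, Krt14 and Krt7 in cTEC, with medians per kilobase of 13.2, 10.8 and 9.71 CPM. They went to Krt19 and Krt14 in MHCII-low cells, with 111 and 108 CPM, and to Krt14 and Krt19 in MHCII-high cells, with 174 and 92.0 CPM.

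Krt8 and Krt18, the simple epithelial pair, were counted in all 40 libraries. The Control libraries held 2406, 553, 831, 384 and 112 CPM of Krt8 in cTEC, 1491, 1366, 1434 and 1399 CPM in MHCII-low cells, and 1105, 2122, 1183 and 1115 CPM in MHCII-high cells. The cTEC libraries spread over more than an order of magnitude, and 1 of them lay above all Control mTEC libraries. The KO libraries of Krt8 had a lowest, median and highest value of 104, 952 and 1683 CPM in cTEC, 558, 1621 and 2834 CPM in MHCII-low cells and 835, 1472 and 2893 CPM in MHCII-high cells. Krt18 in Control libraries measured 3943, 726, 1658, 988 and 463 CPM in cTEC, 2638, 1456, 2324 and 2368 CPM in MHCII-low cells, and 1193, 1362, 1472 and 1230.4 CPM in MHCII-high cells. Its KO libraries had a lowest, median and highest value of 328, 1654 and 3372 CPM in cTEC, 1029.5, 1377 and 4467 CPM in MHCII-low cells, and 1036, 1152 and 1789 CPM in MHCII-high cells. The subsets overlapped for both genes in both genotypes, and neither gene differed between subsets in edgeR's quasi-likelihood test (adjusted p 0.131 to 0.903 over the mTEC against cTEC comparisons). The early and the late set differed within cTEC: Krt8 in KO cTEC was 952 to 1683 CPM in the 4 early libraries and 104 to 346 CPM in the 3 late ones. Krt8 shares exon sequence with a noncoding gene on the opposite strand, which unstranded counts cannot separate.

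**Figure D1:**
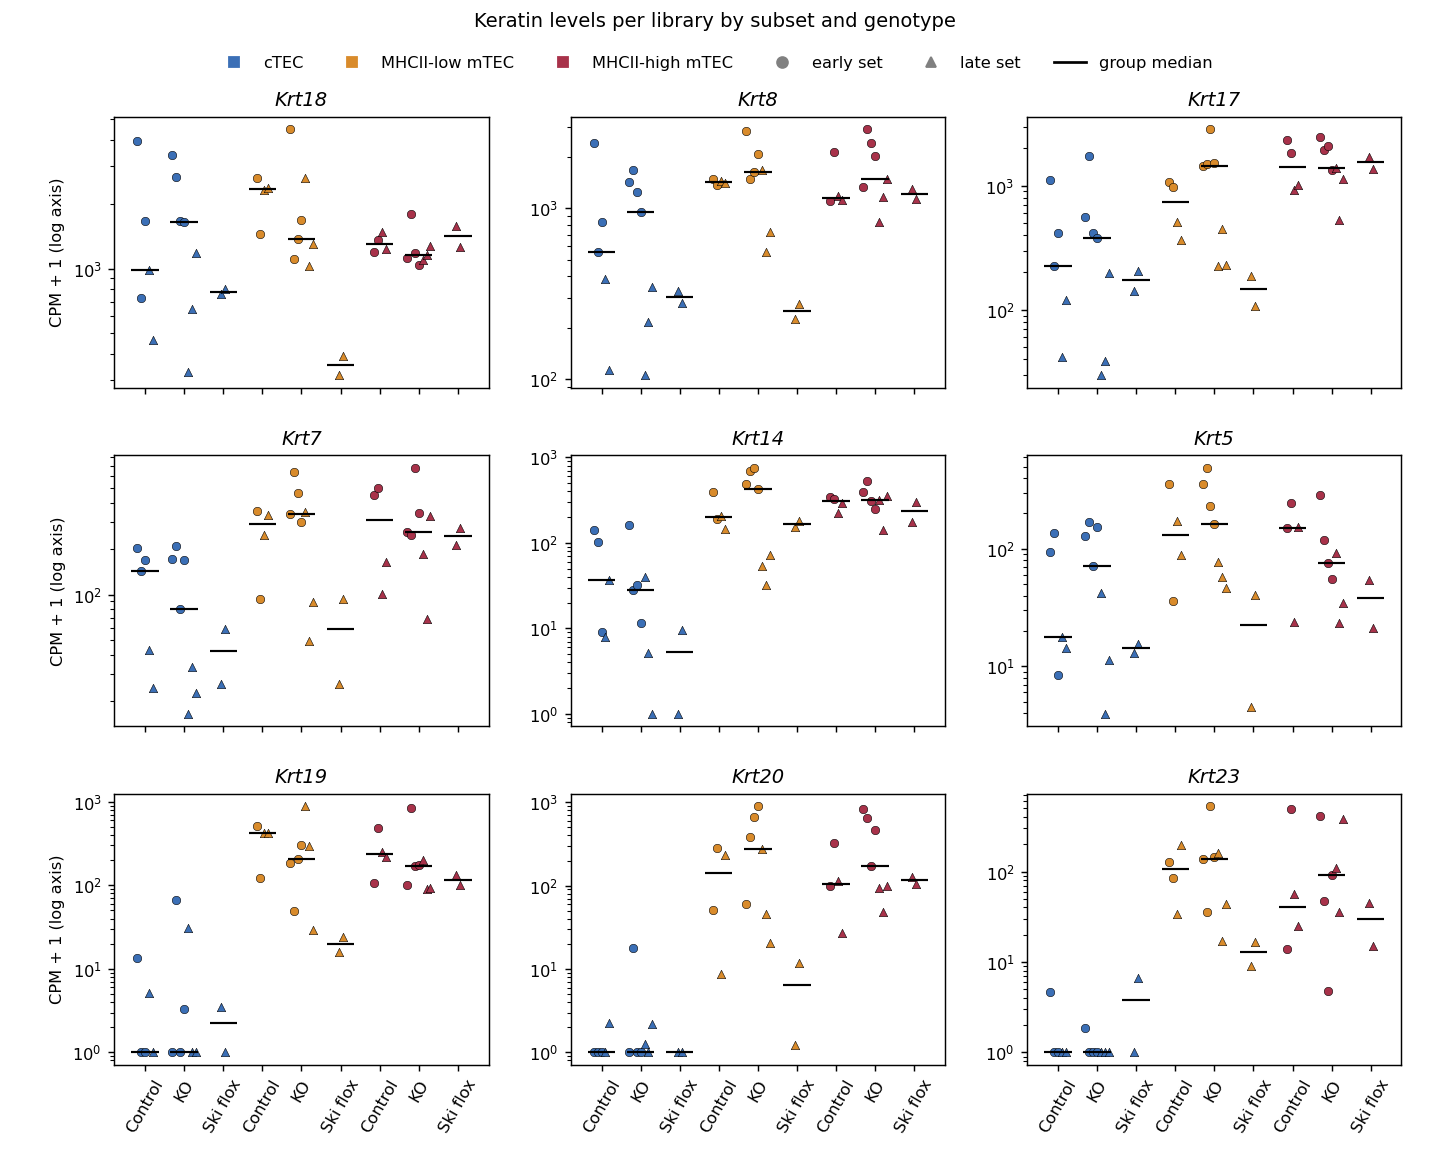
Each panel plots CPM + 1 on a log axis for 1 keratin, with 1 point per library, circles for the early set and triangles for the late set, and a bar at each group's median. Krt18, Krt8 and Krt17 were present throughout, whereas most cTEC libraries sat at 0 for Krt19, Krt20 and Krt23.

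Krt5 and Krt14, the basal pair, ranked behind the simple pair in every subset, and Krt14 was the one of the 2 that differed. In Control libraries Krt14 measured 139, 103, 7.98, 6.94 and 35.6 CPM in cTEC, 395, 190.0, 204 and 146 CPM in MHCII-low cells, and 339.9, 326, 220.3 and 290.2 CPM in MHCII-high cells. Every Control mTEC library lay above every Control cTEC library, yet the differences did not pass the test (log2 fold change 2.0, SE 1.02, adjusted p = 0.303 for MHCII-low, and 2.33, SE 1.03, adjusted p = 0.187 for MHCII-high, edgeR). In KO libraries Krt14 had a lowest, median and highest value of 0, 27.5 and 163 CPM in cTEC, 31.3, 427 and 754 CPM in MHCII-low and 139, 314 and 525 CPM in MHCII-high cells. The KO differences passed, with log2 fold changes of 3.19 (SE 0.88, adjusted p = 0.0291) and 3.05 (SE 0.87, adjusted p = 0.0218, edgeR), although the ranges overlapped. The MHCII-low call was lost in 4 of 14 refits without 1 library (cTEC replicate 3, 4 or 6 or MHCII-low replicate 3, adjusted p 0.0526 to 0.0613). Both calls were lost with limma voom (adjusted p = 0.181 and 0.0513), with only the groups compared (0.253 and 0.078, edgeR), in the early set alone (0.0869 and 0.108, edgeR) and in the late set alone (0.446 and 0.0749, edgeR). In KO MHCII-low cells the 4 early libraries held 427 to 754 CPM of Krt14 and the 3 late ones 31.3 to 70.7 CPM. Krt5 in Control libraries was 91.9, 135, 7.43, 16.9 and 13.4 CPM in cTEC, 354, 35, 172 and 87.2 CPM in MHCII-low and 148, 242, 23.0 and 153 CPM in MHCII-high cells. It overlapped between subsets and passed in no comparison (smallest adjusted p among the 4 mTEC against cTEC comparisons 0.291, edgeR). Of the 50-base windows of the Krt14 transcript 11.4% also occur in Krt16, so the authors' counting could have moved reads between these genes.

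The repertoire was wider in the medulla. A cTEC library held counts of 8 to 17 keratins (median 12), an MHCII-low library 17 to 43 (median 23) and an MHCII-high library 27 to 45 (median 35). Every MHCII-high library exceeded every cTEC library, and cTEC and MHCII-low libraries overlapped only at 17. Over the 14 cTEC libraries 18 of 53 keratins had no count at all, against 5 in the 13 MHCII-low and 1 in the 13 MHCII-high libraries. Among the 37695 genes with a count in any library, the shares without one were 30.5% in cTEC, 15.3% in MHCII-low and 12.9% in MHCII-high cells, beside 34%, 9.43% and 1.89% of the keratins. All genes detected in a library numbered 11084 to 17359 in cTEC, 13945 to 21447 in MHCII-low and 11989 to 20489 in MHCII-high libraries, and the part of this in the number of keratins was not tested. Keratins together took a median of 0.195% of all counts in cTEC, 0.660% in MHCII-low and 0.600% in MHCII-high libraries. In early libraries these medians were 0.368%, 0.839% and 0.877%, and in late ones 0.127%, 0.254% and 0.473%. In cTEC, Krt8 and Krt18 made up a median of 79.8% of all keratin CPM, in MHCII-low cells 58.0% and in MHCII-high cells 44.9%.

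**Figure D2:**
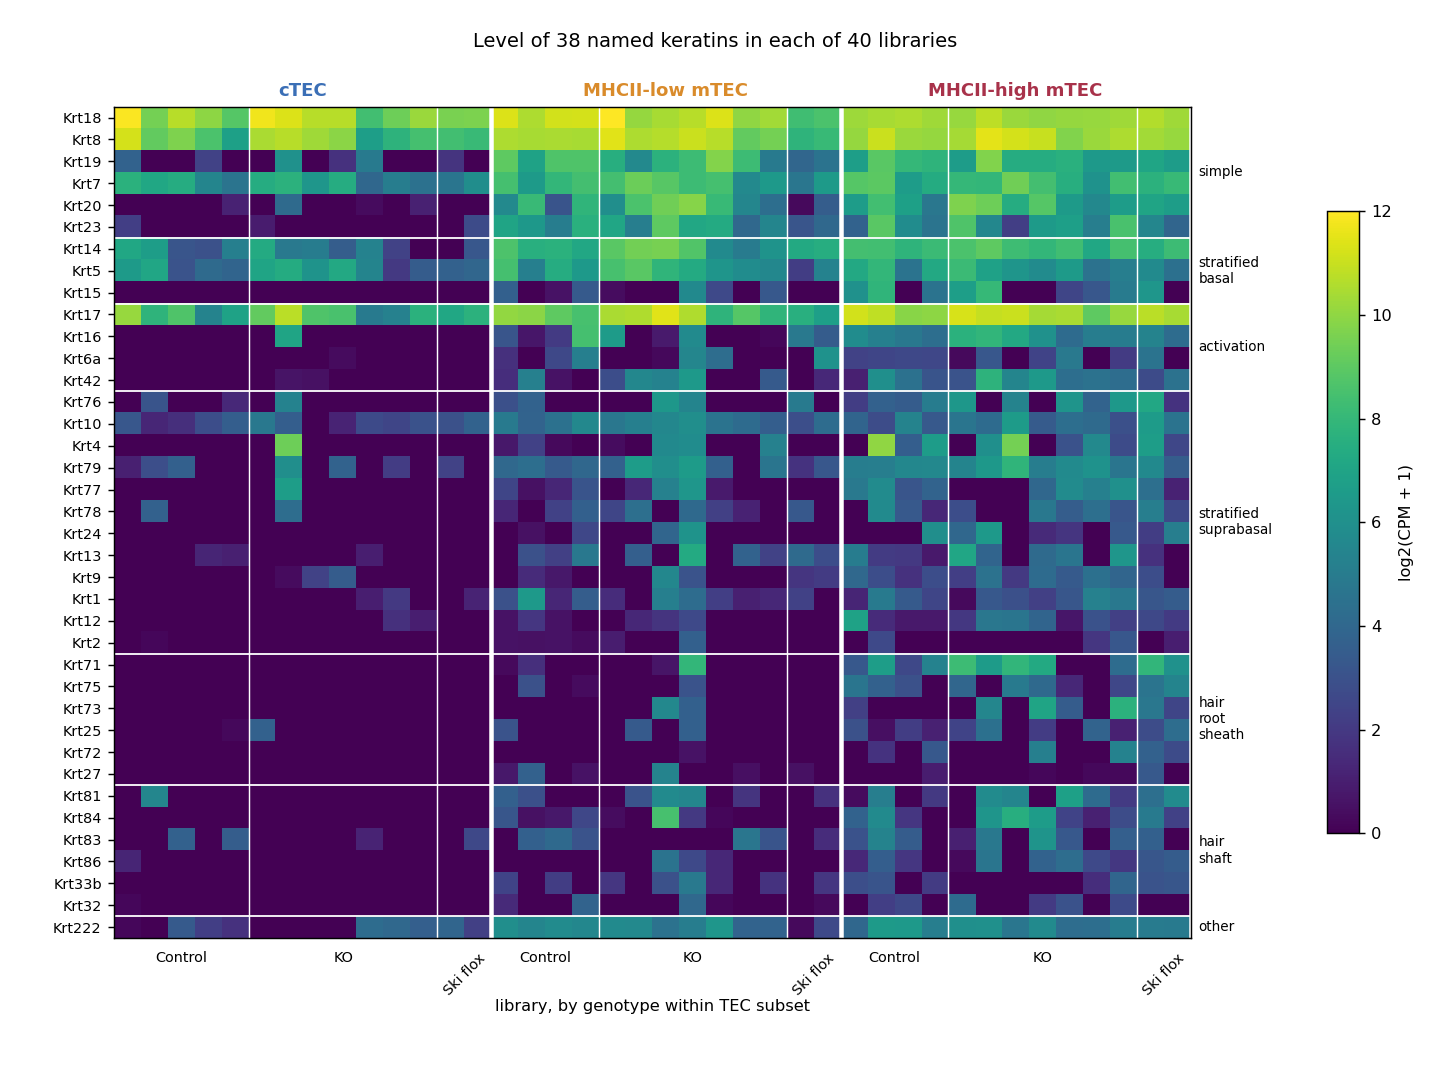
Rows are the 38 named keratins grouped by the epithelium they are known from, columns the 40 libraries by subset and genotype, and colour the log2 of CPM + 1. The rows of hair and suprabasal keratins are mostly at 0 in cTEC and patchy in mTEC, and 9 of the 38 rows are at 0 in every cTEC library.

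Of the 51 keratins that passed the filter on low counts, every one that differed between medulla and cortex in edgeR's test was higher in the medulla. This direction was partly fixed in advance, because the filter ran over all 9 groups together. Of the 53 keratins, 18 had no count in any cTEC library. Those of the 18 that were tested passed the filter through mTEC libraries alone and could not come out lower. In Control libraries 4 were higher in MHCII-low cells than in cTEC (Krt1, Krt19, Krt20 and Krt23), where 0.703% of all 23040 genes tested were higher. In Control MHCII-high cells 6 were higher (the same 4 with Krt12 and Krt42), where 1.07% of all genes were. In KO libraries 14 were higher in MHCII-low cells, against 5.19% of all genes, and 21 in MHCII-high cells, against 12.9% of all genes. No keratin was lower in any of the 4 comparisons by edgeR, in which 0.0694%, 0.0434%, 0.49% and 1.82% of all genes were lower. The median log2 fold change over the keratins tested was 4.0 and 4.58 in Control and 3.87 and 4.54 in KO libraries, or 2.5, 3.66, 3.19 and 4.10 with genes absent from a group set at their bound. Over all genes tested it was 0.14, 0.25, 0.25 and 0.28. Both mTEC comparisons of a genotype share that genotype's cTEC libraries, whereas the Control and KO comparisons use separate libraries. The Control counts were small and unstable: they ranged from 1 to 4 and from 2 to 5 with 1 library left out, were 0 and 0 in the early set alone (0.00498% and 0.0199% of all genes), and were 17 and 19 with DESeq2 (6.6% and 7.43% of all genes). Of the 17, 1 was lower in MHCII-low cells, Krt36, a hair keratin named here after its values were seen, which had 4 counts in 1 Control cTEC library and none in Control MHCII-low libraries. Leaving out cTEC Control replicate 2, 3, 4 or 5 took the MHCII-low count to 1 or 2 (0.182% to 0.489% of all genes). Leaving out any Control cTEC library or MHCII-high replicate 3 took the MHCII-high count to 2 or 3 (0.298% to 0.787%). In KO libraries the MHCII-low count was 4 to 9 without cTEC replicate 1, 3, 4, 5, 6 or 7 or MHCII-low replicate 3 or 4. The shares of all genes were then 2.95% to 4.48%. The KO MHCII-high count was 13 without cTEC replicate 4 (8.56% of all genes). Every library lay above every cTEC library of the same genotype for 11 and 15 keratins in Control MHCII-low and MHCII-high cells (5.08% and 6.79% of all genes) and for 2 and 5 keratins in KO cells (0.569% and 2.46% of all genes).

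Krt19, Krt20 and Krt23 were the 3 keratins that passed in all 4 comparisons. How many of all genes passed in all 4 was not counted. The 3 keratins are type I genes of the chromosome 11 cluster and are known from simple or glandular epithelia. In GRCm38, Krt20 lies at chr11:99428403-99438150, Krt23 at chr11:99477974-99493137 and Krt19 at chr11:100140810-100148665, all on the minus strand.

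Krt20, known from the lining of gut and urinary tract, was near 0 in cTEC. Control cTEC libraries held 0, 0, 0, 0 and 1.24 CPM, MHCII-low libraries 49.7, 281, 7.64 and 233 CPM and MHCII-high libraries 98, 325, 111 and 26.3 CPM. Every mTEC library of both genotypes lay above every cTEC library of the same genotype. The KO libraries had a lowest, median and highest value of 0, 0 and 16.7 CPM in cTEC, 19.4, 274 and 896 CPM in MHCII-low and 47.8, 172 and 827 CPM in MHCII-high cells. The log2 fold changes were 9.06 (SE 1.80, adjusted p = 0.0110) and 9.04 (SE 1.80, adjusted p = 0.00795) in Control and 7.07 (SE 1.34, adjusted p = 0.00223) and 7.08 (SE 1.34, adjusted p = 0.00144) in KO libraries by edgeR. Krt20 passed with every single library left out in all 4 comparisons, but not within the early set alone (adjusted p 0.0553 to 0.351), and in Control libraries not within the late set alone either (0.0538 and 0.135).

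Krt23, an inducible keratin of glandular epithelia, was counted in 1 Control and 1 KO cTEC library. Control cTEC libraries held 3.68, 0, 0, 0 and 0 CPM, MHCII-low libraries 127, 83.7, 32.7 and 195 CPM and MHCII-high libraries 12.8, 488, 56.1 and 23.8 CPM. In KO libraries the lowest, median and highest values were 0, 0 and 0.870 CPM in cTEC, 15.9, 136 and 525.8 CPM in MHCII-low and 3.73, 91.0 and 409.5 CPM in MHCII-high cells. Again no mTEC library fell within the cTEC range of its genotype. The log2 fold changes were 7.18 (SE 1.53, adjusted p = 0.0178) and 7.58 (SE 1.56, adjusted p = 0.0105) in Control and 10.03 (SE 1.51, adjusted p = 0.000199) and 10.05 (SE 1.51, adjusted p = 0.000125) in KO libraries by edgeR. The Control calls were lost without cTEC replicate 2, 4 or 5 (MHCII-low, adjusted p 0.0604 to 0.0691) and without MHCII-high replicate 3 (adjusted p = 0.0638), whose 488 CPM was the highest Control value. By edgeR both were also lost in the early set alone (adjusted p = 0.629 and 0.358) and with a block by adjacent library numbers (0.0586 and 0.0573). The MHCII-low one was lost with only the groups compared (0.0536, edgeR) and the MHCII-high one in the late set alone (0.0877, edgeR). The KO MHCII-low call was lost in the early set alone (0.067, edgeR), and the KO MHCII-high call in none of 13 other settings.

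Krt19, the smallest type I keratin and a marker of ductal epithelium, was the most abundant of the 3 by median level per kilobase in both mTEC subsets. Control cTEC libraries held 12.5, 0, 0, 4.16 and 0 CPM, MHCII-low libraries 517, 121, 420.0 and 416 CPM and MHCII-high libraries 106, 483, 251 and 219 CPM. The KO libraries had a lowest, median and highest value of 0, 0 and 65.5 CPM in cTEC, 28.4, 206 and 881 CPM in MHCII-low and 88.2, 171 and 833 CPM in MHCII-high cells. The groups did not overlap except for KO MHCII-low cells, where 5 of 7 libraries lay above all KO cTEC libraries. The log2 fold changes were 6.80 (SE 1.66, adjusted p = 0.0415) and 6.32 (SE 1.63, adjusted p = 0.0450) in Control and 4.33 (SE 1.23, adjusted p = 0.0363) and 4.10 (SE 1.22, adjusted p = 0.0266) in KO libraries by edgeR. These calls sat close to the threshold: in Control libraries they were lost in 7 of 9 and 8 of 9 refits that left out 1 library (adjusted p up to 0.121), and in KO libraries in 5 and 2 of 14.

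A RefSeq promoter table (GRCm38.p6) held the start regions of 36 of the 53 keratins. The 60 bases before the annotated start are shown for 4 of them, because they put 3 genes that were at or near 0 in cTEC beside 1 expressed in every library. Capitals mark TATAAA on the gene's strand within 40 to 15 bases before the start.
Krt20, chr11:99438154-99438213, minus strand: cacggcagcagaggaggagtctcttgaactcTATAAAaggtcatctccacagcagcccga
Krt23, chr11:99493121-99493180, minus strand: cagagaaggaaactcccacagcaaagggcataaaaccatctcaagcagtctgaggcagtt
Krt71, chr15:101743098-101743157, minus strand: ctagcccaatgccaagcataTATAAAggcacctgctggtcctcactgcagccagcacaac
Krt18, chr15:102028156-102028215, plus strand: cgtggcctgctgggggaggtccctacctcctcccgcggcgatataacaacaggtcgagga

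The motif TATAAA, the core of the TATA box, was in this window for 13 of the 36 keratins (36.1%) and for 650 of 27025 genes in the table (2.41%). In Krt20 it began 29 bases and in Krt71 40 bases before the start, while Krt23 and Krt18 had no such match. The starts used lay 3, 17, 12 and 36 bases from the GENCODE gene starts of Krt20, Krt23, Krt71 and Krt18. For Krt18 the searched window lay mostly inside the GENCODE gene, so its lack of a match depends on the start chosen. Krt10, Krt12 and Krt73 also held TATAAA in the window, and Krt10 had a count in 13 of 14 cTEC libraries. Krt42 and Krt84, whose sequences are not shown, were at or near 0 in cTEC and had no match. ATAAAA, a motif that overlaps TATAAA and was picked after the sequences were seen, was in the same window for 14 keratins (38.9%, against 2.11% of genes). Krt23 and Krt20 were among them, and so was Krt5, which had a count in all 40 libraries. The GC box core CCGCCC was found on either strand of the whole table entry for 2 keratins (5.56%, against 38.2% of genes). The AP-1 motif TGANTCA was found on either strand for 1, Krt13 (2.78%, against 8.97%). These are matches of letters and not mapped sites.

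Krt1, Krt12 and Krt42 completed the Control calls, and all 3 had no count in any Control cTEC library. Krt1, of the upper epidermis, was 6.86, 85.8, 1.43 and 10.7 CPM in MHCII-low and 1.36, 29.4, 9.60 and 4.68 CPM in MHCII-high libraries. Set against 3 counts over all Control cTEC libraries (0.101 CPM), its mean was at least 260-fold higher in MHCII-low cells and at least 112-fold higher in MHCII-high cells. Without MHCII-low replicate 3 and MHCII-high replicate 3 these bounds were 62.7-fold and 51.7-fold. The 2 calls were lost in 5 of 9 and 7 of 9 refits without 1 library. Krt12, the corneal type I keratin, was 118, 1.75, 0.758 and 0.780 CPM in MHCII-high libraries, at least 301-fold higher than in cTEC, but at least 10.9-fold without replicate 1, and its call was then lost (adjusted p = 0.137, edgeR). Krt42, a type I keratin of the nail unit, was 1.09, 61.8, 21 and 7.60 CPM in MHCII-high libraries, at least 227-fold higher, and at least 98.1-fold without replicate 3. The calls of Krt12 and Krt42 in Control cells were each lost in 6 of 9 such refits. It was also higher in both KO comparisons, with log2 fold changes of 7.40 (SE 1.69, adjusted p = 0.0114) and 8.56 (SE 1.76, adjusted p = 0.00365, edgeR). In KO MHCII-high libraries Krt42 ranged from 7.34 to 216 CPM and did not overlap with KO cTEC, where 2 of 7 libraries held any, at most 0.555 CPM.

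**Figure D3:**
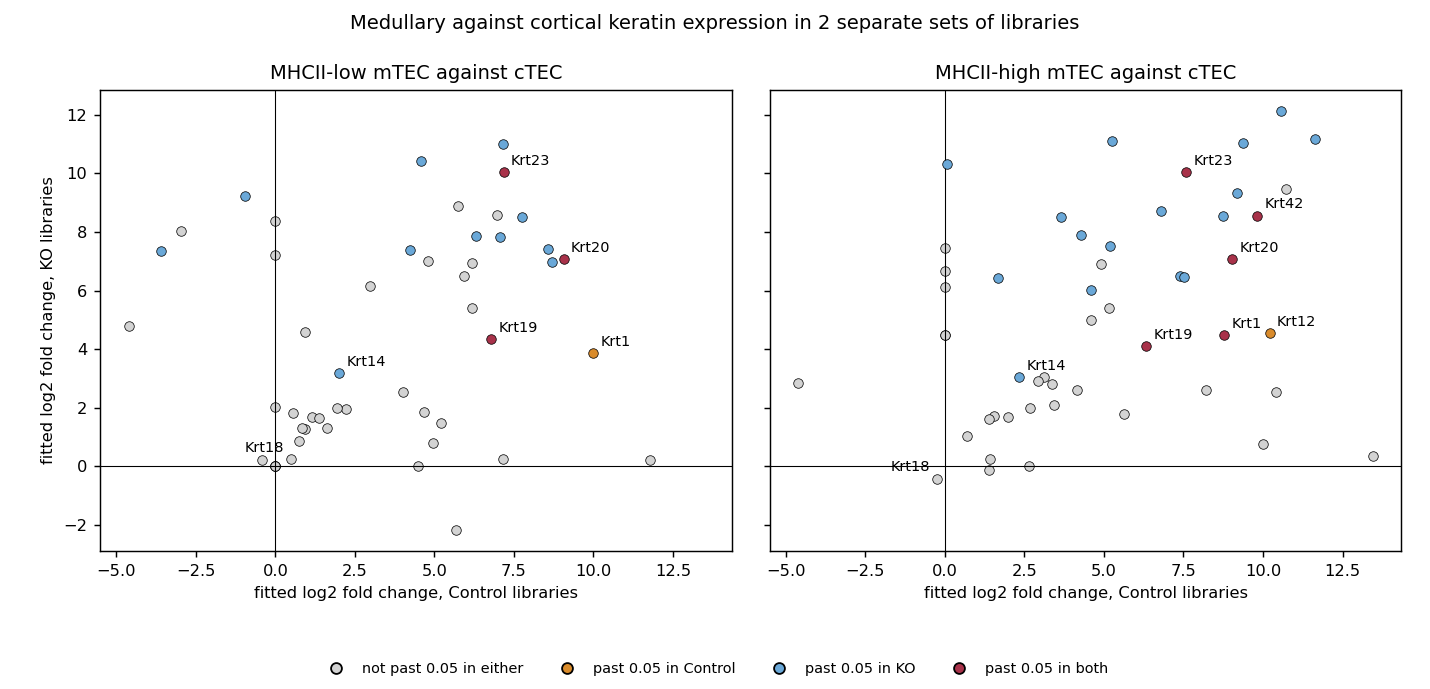
Each point is 1 of the 51 keratins tested, with its fitted log2 fold change of mTEC against cTEC in Control libraries on the x axis and in KO libraries on the y axis, for MHCII-low cells on the left and MHCII-high cells on the right. Krt19, Krt20 and Krt23 passed 0.05 in both genotypes in both panels, and Krt1 and Krt42 also in the right one. Fitted values of genes with no count in a group depend on the prior count.

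The other KO calls held further keratins of stratified epithelia. Krt15, a basal keratin of hair follicle stem cells, had no count in any of the 14 cTEC libraries. It was at least 106-fold higher in KO MHCII-low and at least 673-fold higher in KO MHCII-high cells, against 3 counts over all KO cTEC libraries (0.0868 CPM). These bounds fell to 27.8-fold without MHCII-low replicate 4 and 283-fold without MHCII-high replicate 2, and the MHCII-low call was lost in 11 of 14 refits without 1 library. Krt13, of oral and oesophageal lining, rose with log2 fold changes of 7.38 (SE 2.03, adjusted p = 0.0307) in MHCII-low and 7.89 (SE 2.07, adjusted p = 0.0151) in MHCII-high KO cells by edgeR. Its medians were 4.15 and 16.5 CPM, and it was 160 CPM in MHCII-low replicate 4, without which that call was lost (adjusted p = 0.0916, edgeR), as it was without any of 5 cTEC libraries. Krt6a, of activated epidermis, passed in both with log2 fold changes of 6.96 (SE 2.13, adjusted p = 0.0489) and 6.45 (SE 2.08, adjusted p = 0.0381, edgeR). Of its 50-base windows 43.6% also occur in Krt6b, and the calls were lost in 11 and 8 of 14 refits without 1 library. In MHCII-high KO cells Krt24, of differentiated epidermis, was at least 188-fold higher (54.9-fold without replicate 2), Krt1 passed with a log2 fold change of 4.47 (SE 1.52, adjusted p = 0.0458, edgeR), and Krt2, of upper epidermis, was at least 18.5-fold higher (5.27-fold without replicate 7). These 3 calls were lost in 5, 8 and 9 of 14 refits without 1 library.

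Hair keratins were sparse in cTEC. Of the 8 root sheath members, 7 had no count in cTEC, and of the 15 hair shaft members 8 had none. A cTEC library held counts of 0 to 4 of these 23 genes, an MHCII-low library 1 to 15 and an MHCII-high library 7 to 17. The root sheath keratins summed to 0 to 12.2 CPM in Control and KO cTEC, 0 to 275 CPM in MHCII-low and 11.7 to 338 CPM in MHCII-high libraries of those genotypes.

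Krt71, of the inner root sheath, had the highest median level per kilobase of the hair keratins in MHCII-high cells. It was absent from cTEC and measured 8.74, 102, 5.05 and 38.8 CPM in Control MHCII-high libraries and 301, 95.2, 234, 157, 0, 0 and 17.6 CPM in KO MHCII-high libraries. Within KO the 4 early libraries held the 4 highest values and the 3 late ones 0 to 17.6 CPM. In KO cells it was at least 1324-fold higher in MHCII-high cells than in cTEC (967-fold without replicate 1). In KO MHCII-low cells it passed as well, but on 1402 counts in replicate 4 with 3 counts in all other libraries, and without replicate 4 the adjusted p was 0.514 (edgeR). Its relatives Krt72, Krt73 and Krt75 passed in KO MHCII-high cells, at least 124-fold, 644-fold and 109-fold higher, or 68.8-fold, 346-fold and 71.9-fold without replicate 7, 7 and 3. Krt72 had 208 counts in replicate 4, 203 in replicate 7 and none in the others. Krt73 was at 0 in replicates 1, 3 and 6 and Krt75 in replicates 2 and 6. All 3 calls were lost in either set alone (adjusted p 0.1125 to 0.215, edgeR). That of Krt72 was lost in 5 of 11 other settings, limma voom among them (adjusted p = 0.0769). Krt27, an inner root sheath type I keratin, passed in KO MHCII-low cells with 192 counts in replicate 3 and 2 counts in the others (adjusted p = 0.306 without replicate 3). Krt25, of the same sheath, passed in none of these 4 comparisons and reached 20.5 CPM.

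Among hair shaft keratins Krt81, Krt84 and Krt86 passed in both KO comparisons. They were at least 177-fold, 599-fold and 47.9-fold higher in MHCII-low and at least 378-fold, 610-fold and 106-fold higher in MHCII-high cells than in KO cTEC. Krt84, known from nail and tongue, owed its MHCII-low value to 360 CPM in replicate 3: without it the bound was 6.58-fold and the call was lost (adjusted p = 0.11, edgeR). Krt84, Krt81 and Krt86 kept their MHCII-high calls in all 14 refits that left out 1 library. Without MHCII-low replicate 3 the MHCII-low bounds of Krt81 and Krt86 were 105-fold and 12.9-fold, and without MHCII-high replicate 5, 3 and 2 the bounds of Krt81, Krt84 and Krt86 were 224-fold, 356-fold and 76.2-fold. Krt33b passed in both, at least 67.4-fold and 26.2-fold higher (26-fold without MHCII-low replicate 4 and 3.76-fold without MHCII-high replicate 7), and Krt32 in MHCII-high cells, at least 53.7-fold higher (29.9-fold without replicate 1). Krt83 passed in MHCII-high cells with a log2 fold change of 6.43 (SE 2.25, adjusted p = 0.0491, edgeR). Its call was lost in 11 of 14 refits without 1 library, the MHCII-low calls of Krt81, Krt86 and Krt33b in 9, 8 and 8, and the MHCII-high call of Krt33b in 8, MHCII-high replicate 7 among them (adjusted p = 0.0978, edgeR). Of the 50-base windows of Krt81 38% occur in Krt86, and of those of Krt83 19.7%, so the split of reads among Krt81, Krt83 and Krt86 is uncertain.

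Presence was uneven from library to library. The median keratin had a count in 1 of 14 cTEC, 6 of 13 MHCII-low and 10 of 13 MHCII-high libraries. For 12 of the 53, over 50% of the level summed over all libraries came from 1 library. Krt4, a type II keratin of oral lining, was not one of them, with 35.6% in its highest library, but was uneven too. It was 1032 CPM in Control MHCII-high replicate 3 and 719.7 CPM in KO MHCII-high replicate 3, while the other libraries of those groups held 0 to 98.2 CPM and 0 to 62.0 CPM. A single cTEC library, KO replicate 2, held 659 CPM of Krt4 together with 128 CPM of Krt16, 100.5 CPM of Krt77 and 38.9 CPM of Krt76. Those 4 genes were otherwise at 0 in cTEC except for Krt76, which reached 7.60 CPM. The highest value of 24 keratins was in an MHCII-low library, of 28 in an MHCII-high library and of 1, Krt77, in cTEC. KO MHCII-low replicates 3 and 4 alone held 8 and 7 of these maxima. Replicate 4 had counts of 43 keratins and replicate 3 of 32, with 16993 and 13945 genes detected. These were the median and the lowest number among the 13 MHCII-low libraries, and their part in the maxima was not tested.

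Between MHCII-high and MHCII-low cells no keratin passed in Control or KO libraries by edgeR, where 0% and 0.0174% of all genes did. At an unadjusted p under 0.05 there were 7 and 8 keratins by edgeR (13.7% and 15.7% of those tested), beside 7.47% and 17.5% of all genes. DESeq2 called 5 and 2, beside 0.872% and 2.4% of all genes, and limma voom called 3 in KO libraries, beside 2.76%. The median log2 fold change over keratins was 0.73 in Control and 0.50 in KO libraries, beside 0.04 and 0 over all genes. Krt16, an activated epidermis keratin, was among the 3 called by limma voom (log2 fold change 5.91, SE 1.49, adjusted p = 0.0246). Its KO levels had a lowest, median and highest value of 0, 0.173 and 96.2 CPM in MHCII-low and 17.4, 66.1 and 234 CPM in MHCII-high cells. In Control cells Krt16 was 7.84, 0.677, 3.10 and 346 CPM in MHCII-low and 56.8, 36.7, 26.8 and 19.5 CPM in MHCII-high libraries, which overlapped.

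Filament partners were counted together for some pairs and apart for others. Taking 10 CPM as a minimum, Krt8 and Krt18 were together in 40 of 40 libraries, and Krt5 and Krt14 in 33. Krt1 and Krt10 were together in 6 libraries, while Krt10 stood without Krt1 in 19. Krt4 and Krt13 were together in 2, with Krt4 alone in 9 and Krt13 alone in 9. Krt6a and Krt16 were together in 5, with Krt16 alone in 14. Krt71 met its sheath partners Krt25 and Krt27 in 3 and 0 libraries and stood without them in 7 and 10. The pairs were chosen from known biology after the levels were seen, and a library of 200 cells does not show which cells hold both.

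Summed type II transcript was below summed type I transcript per kilobase in all 40 libraries. The ratio of type II to type I had a median of 0.290 in cTEC (range 0.171 to 0.554), 0.360 in MHCII-low (0.269 to 0.448) and 0.402 in MHCII-high libraries (0.261 to 0.728), and the ranges overlapped. Within the simple pair, the Krt8 to Krt18 ratio per kilobase had a median of 0.314 in cTEC, 0.466 in MHCII-low and 0.739 in MHCII-high libraries. All 13 MHCII-high libraries (0.561 to 1.49) lay above all 14 cTEC libraries (0.178 to 0.559), though both changed with the set of libraries: among early libraries the medians were 0.448 in cTEC and 1.17 in MHCII-high cells, and among late ones 0.243 and 0.654.

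**Figure D4:**
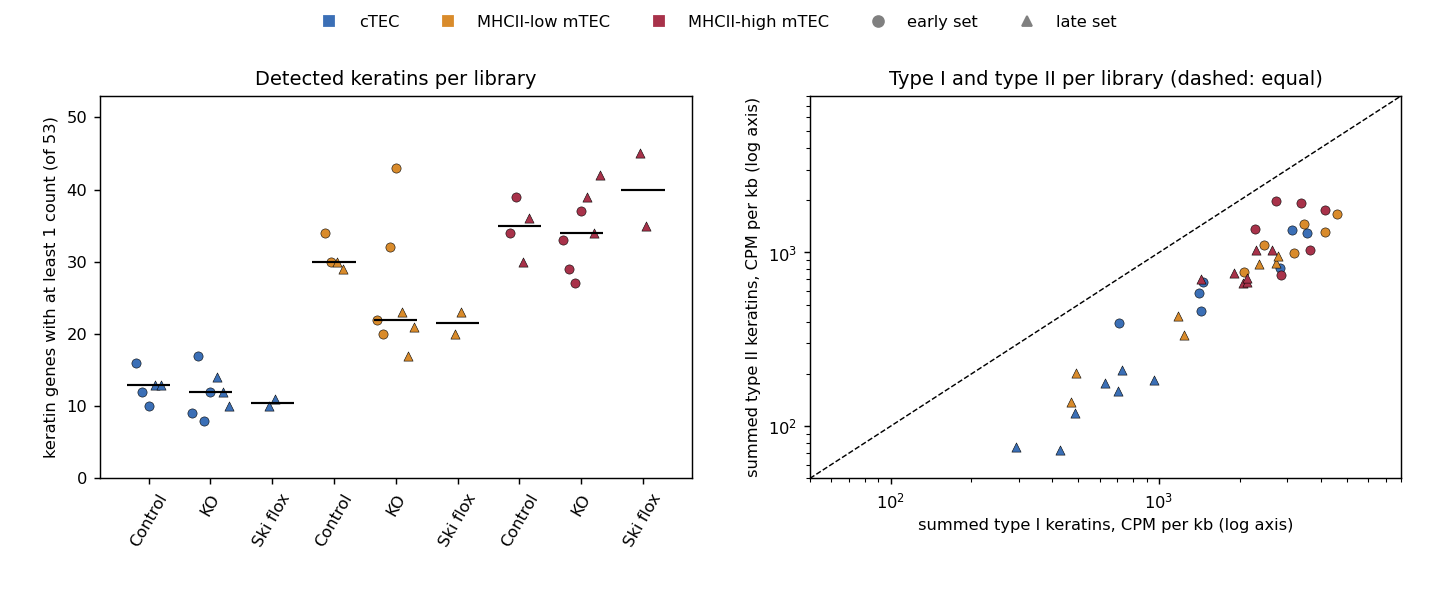
The left panel plots the number of keratins with at least 1 count per library by group, with bars at group medians. The right panel plots summed type II against summed type I keratin in CPM per kilobase on log axes, where all 40 libraries lie below the dashed line of equal levels, and late cTEC libraries and the 2 MHCII-low Ski flox Control libraries lie lowest.

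The study asked what loss of SKI does in TEC, and no keratin passed. KO against Control gave 0 of 51 keratins in cTEC, MHCII-low and MHCII-high cells by edgeR, where 0% of all genes passed. At an unadjusted p under 0.05 there were 12, 6 and 3 keratins, beside 10.6%, 7.11% and 6.88% of all genes. DESeq2 called 8, 3 and 2, beside 2.26%, 0.994% and 0.634% of all genes. Each of these calls was of a keratin without a count in 1 of the 2 groups. Their log2 fold changes were 13.7 to 25.5 in size. In cTEC, Krt4, Krt16 and Krt77 had counts in KO replicate 2 alone and Krt81 in Control replicate 2 alone, and Krt6a had 2 counts. Krt8 differed by -0.01 (SE 0.52) on the log2 scale in cTEC, 0.14 (SE 0.56) in MHCII-low and 0.32 (SE 0.56) in MHCII-high cells. The differences of Krt18 were 0.08 (SE 0.42), -0.17 (SE 0.45) and -0.09 (SE 0.45). Those of Krt14 were -0.58 (SE 0.88), 0.62 (SE 0.96) and 0.14 (SE 0.95), and those of Krt5 0.62 (SE 0.82), 0.32 (SE 0.87) and -0.54 (SE 0.85). In MHCII-low cells the differences of Krt14 and Krt5 turned to -1.76 and -1.13 in the late set alone, and both were below 0 with a term for the sets. All of the differences over both sets had an adjusted p of 1, and differences of the size of these errors were not detectable. The difference of the KO effect between subsets was tested as an interaction and passed for no keratin (smallest adjusted p 0.453, 0.455 and 0.730 for MHCII-low minus cTEC, MHCII-high minus cTEC and MHCII-high minus MHCII-low, edgeR). In these 3 tests 7, 9 and 2 keratins had an unadjusted p under 0.05, beside 7.38%, 7.26% and 6.17% of all genes. DESeq2 called 7, 6 and 0, beside 1.62%, 1.58% and 0.603%, and each keratin it called was also among its 8 calls in cTEC. Of the keratins higher in MHCII-low cells than in cTEC, 3 of the 4 in Control and 3 of the 14 in KO libraries were shared. In MHCII-high cells 5 of the 6 and 5 of the 21 were shared. Of all genes, 0.703% and 5.19% were higher in Control and KO MHCII-low cells, and 1.07% and 12.9% in MHCII-high cells. The overlap over all genes was not counted, so the shared numbers are no result about keratins. The KO groups hold 7 libraries against 4 or 5 in Control.

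The 2 MHCII-low Ski flox Control libraries stood low in keratin. They held 225 and 274 CPM of Krt8, where Control libraries held 1366 to 1491 CPM and KO libraries 558 to 2834 CPM. Krt18 was 316 and 388 CPM in them, below all Control (1456 to 2638 CPM) and KO libraries (1029.5 to 4467 CPM). Krt17 (186 and 107 CPM) and Krt19 (14.8 and 23.0 CPM) lay below all Control libraries as well, whereas Krt14 (154 and 178 CPM) lay within their range. All keratins together took 0.102% and 0.115% of counts, against 0.452% to 0.782% in Control libraries. No keratin passed against Control (Krt18 log2 fold change -2.64, SE 0.71, and Krt8 -2.51, SE 0.88, both adjusted p = 0.689, edgeR), where 0% of all genes passed, with 6 at an unadjusted p under 0.05, beside 5.53% of all genes. Within the late set alone Krt18 (-2.73, SE 0.50, adjusted p = 0.0119) and Krt8 (-2.49, SE 0.58, adjusted p = 0.0434) did pass, where 1.37% of all genes did, and DESeq2 on all libraries called 9, beside 3.36% of all genes. In the same 2 libraries myeloid markers (10 genes) summed to 4986 and 9032 CPM. MHCII-low Control libraries held 1200 to 4637 CPM of them and KO libraries 733 to 6777 CPM. Thymocyte markers summed to 1340 and 1772 CPM, against 89.2 to 2571 CPM in Control and 71.9 to 2984 CPM in KO libraries. Junction genes summed to 308 and 587 CPM, against 1122 to 2391 CPM in Control and 537 to 2905 CPM in KO libraries. None of the myeloid or thymocyte markers was at 0 in both Ski flox Control libraries. In contrast, 5 of 10 endothelial and 5 of 10 fibroblast markers were at 0 in both. The part of all these markers in the low keratin was not tested. The MHCII-high Ski flox Control libraries had 1288 and 1125 CPM of Krt8 and 1582 and 1263 CPM of Krt18, against 1105 to 2122 CPM and 1193 to 1472 CPM in Control.

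Genes that anchor or accompany keratin filaments were counted from lists chosen with earlier results known. Of 20 desmosome and hemidesmosome genes tested, 2 were higher in each Control comparison of mTEC with cTEC and 5 and 6 in KO libraries, with none lower, where 0.703%, 1.07%, 5.19% and 12.9% of all genes were higher. Dsg1a, a desmosomal cadherin of upper epidermis, was at 0 in all Control cTEC libraries and 2.86 to 38.8 CPM in MHCII-low and 36.9 to 109 CPM in MHCII-high Control libraries (adjusted p = 0.000529 and 5.1e-05, edgeR). Dsg2, the cadherin of simple epithelia, rose by 3.86 on the log2 scale in both (SE 0.85, adjusted p = 0.0226 and 0.0187, edgeR). The median log2 fold change of the list was 1.48 and 1.04 in Control and 0.68 and 0.12 in KO libraries, beside 0.14, 0.25, 0.25 and 0.28 over all genes.

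Of 16 epithelial transcription factors, 3 and 1 were higher in Control and 5 and 5 in KO libraries, beside the same 0.703%, 1.07%, 5.19% and 12.9% of all genes, with none lower and list medians of 2.83, 2.18, 1.79 and 2.23. Sox9, a progenitor factor of many epithelia, passed in all 4, with a median of 5.32 CPM in Control cTEC and 180 and 123 CPM in Control MHCII-low and MHCII-high cells. Elf3 and Ehf, ETS factors of simple and glandular epithelia, passed in Control MHCII-low cells, with medians of 488 and 428 CPM against 4.86 and 11.1 CPM in cTEC (adjusted p = 0.0495 and 0.0329, edgeR). Of 10 proteins that bind keratin filaments, none passed in Control and 3 and 4 were higher in KO libraries, among them Pof1b and the epidermal filaggrin Flg, with list medians of 4.29, 4.41, 2.91 and 4.56. Of 16 other intermediate filament genes, none passed in Control libraries, 2 were higher in KO MHCII-low cells, and 3 were higher and 1 lower in KO MHCII-high cells, with list medians of -0.61, 0.06, -1.26 and -0.35. The lower one was Synm (synemin), with a median of 34.9 CPM in KO cTEC and 0 in KO MHCII-high cells (log2 fold change -5.12, SE 1.36, adjusted p = 0.0155, edgeR), opposite in direction to every keratin that passed.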

How the data were processed

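RNA was made into full-length cDNA with SMART-Seq v4 and into libraries with Nextera XT, per the labels' protocols. The deposited table holds raw counts per Ensembl gene, made by the authors. Per the submitters' processing notes the build was GRCm38, and the tools named are SAMtools 1.2, FastQC 0.11.3, Picard 1.134 and HTSeq 0.4.1. An aligner is not given in the sources used here. Strand is not marked by this kit. Where genes on the opposite strand overlap Krt7, Krt8, Krt10, Krt12, Krt32, Krt80 and Krt6a, shared reads cannot be told apart, and how they were counted is not given in the sources used here. Amplified reads carry no molecular identifiers, so a limit set from a count of 0 allows for counting error alone.

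Of 53465 gene IDs, 53360 matched GENCODE M21, which gave symbols, positions and exon lengths, and 105 did not match. Libraries under 100000 counts were left out (2 of 42). Counts were tested with edgeR 4.0.16 (R 4.3.3): TMM scaling, filterByExpr with a minimum count of 10 (23040 of 37695 genes with a count), means for the 9 groups sharing one dispersion fit, the quasi-likelihood test, and Benjamini-Hochberg adjustment over all genes tested at 0.05. The biological coefficient of variation was 1.4. CPM values are TMM-scaled. A fold against a group at 0 is a lower bound: the mean over the CPM worth of 3 counts over that group's libraries. Of the 53 keratins, 51 passed the filter. The tests were checked on simulated data. Alternatives used DESeq2 1.42.0 and limma 3.58.1 and the settings given in the closing section.

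The members, lists and the boundary between the early and late set (library number 78048) were chosen with earlier results of these data known. Named were the 29 keratins with a group median of at least 10 CPM and those past the threshold in any comparison, 38 in all; the other 15 had a highest group median of 7.53 CPM. Labels name no animals or shared replicate numbers, so p-values measure only the spread between these libraries, and replicate numbers follow deposit order. Protein sequences were not used here; likeness between members was measured as shared 50-base windows of GENCODE transcripts, found in 33 of 1378 pairs and 25 members.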

Additional observations from a re-analysis of the deposited data

Results flagged for a closer look

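Among the keratin levels, 9 values stood apart from the rest of their group in 75 groups checked over 13 keratins. The rule marks about 1 in 20 groups of normally distributed values. Where only 1 library of a group is above 0, it is always marked, as for Krt20 in Control cTEC and Krt23 in Control and KO cTEC. The number marked therefore cannot be set against that rate. In Control MHCII-high cells Krt8 was 2122 CPM in replicate 3 and Krt12 was 118 CPM in replicate 1, each far above the other 3 libraries. In KO MHCII-high cells replicate 2 stood above the others with 1789 CPM of Krt18 and 833 CPM of Krt19. In Control MHCII-low cells Krt19 was 121 CPM in replicate 3, below the other 3 libraries. In cTEC, groups otherwise at or near 0 held 1.24 CPM of Krt20 in Control replicate 5, 16.7 CPM of Krt20 in KO replicate 2, 3.68 CPM of Krt23 in Control replicate 1 and 0.870 CPM of Krt23 in KO replicate 1.

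The MHCII-high Control library left out for its 41828 counts held 193 keratin counts from 16 keratins, and 6 keratins took a larger share of it than of any other library of its group. They were Krt14 with 16 counts, Krt79 with 14, Krt25 with 11, Krt78 with 8, Krt88 with 5 and Krt76 with 4. The MHCII-low Control library with 82 counts held no keratin count.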

How the results depend on the processing

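No label links libraries across groups, but library numbers run in threes of 1 library per subset and 1 genotype. Libraries of such a run deviated from their group means together, with a median r of 0.087 across genes and r over 0.1 in 17 of 39 pairs. Between runs of a genotype, r was over 0.1 in 19 of 76 pairs within a set (median 0.03). Across the sets it was over 0.1 in 0 of 100 pairs (median -0.0705). For 20 of 40 libraries the highest r was within their own run. What a run shares is not given, and the main tests treat its libraries as independent, which they may not be. A replicate block by run was added after the data were seen. Against cTEC it gave 1 and 2 keratins in Control MHCII-low and MHCII-high cells (0.195% and 0.668% of all genes). In KO MHCII-low and MHCII-high cells it gave 5 (2.67% of all genes) and 19, and all of these were higher. It gave 0 between mTEC subsets and in the interactions, and KO against Control cannot be fitted with it. In the MHCII-low and MHCII-high comparisons with cTEC, 4 and 6 keratins were called in Control and 14 and 21 in KO. The Control numbers became 7 and 21 with both control genotypes pooled (4.75% and 11.2% of all genes). In the early set alone the 4 numbers were 0, 0, 1 and 3 (0.00498%, 0.0199%, 0.189% and 1.03%). In the late set alone Control MHCII-high gave 0, KO MHCII-low 3 and KO MHCII-high 7 (0.707%, 1.76% and 2.76%). With only the groups compared, Control MHCII-low gave 1, KO MHCII-low 1 and KO MHCII-high 3 (0.997%, 0.447% and 3.73%). Limma voom gave 18 in Control MHCII-high and 7 in KO MHCII-low cells (8.48% and 4.5%). DESeq2 gave 17 (16 higher, 1 lower), 19 and 24 in Control MHCII-low, Control MHCII-high and KO MHCII-low cells (6.6%, 7.43% and 10.1%). Leaving out each library in turn gave 1 to 4, 2 to 5, 4 to 16 and 13 to 24. The cause was not tested, but the early, late and groups-only fits hold fewer libraries. MHCII-high against MHCII-low gave 5 (Control) and 2 (KO) with DESeq2 (0.872% and 2.4% of all genes). In KO libraries it gave 3 with limma voom (2.76%) and 1 in the late set (1.12%). KO against Control gave 8, 3 and 2 with DESeq2 (2.26%, 0.994% and 0.634% of all genes). By DESeq2, KO against Ski flox Control gave 7, 13 and 1 (4.48%, 4.33% and 0.456%). Ski flox Control against Control gave 4 in cTEC (4.12%) and 9 in MHCII-low cells (3.36%) with DESeq2. In MHCII-low cells it gave 2 in the late set alone by edgeR (1.37%). The interactions with cTEC gave 7 for MHCII-low (1.62%) and 6 for MHCII-high cells (1.58%) with DESeq2. All of these KO, Ski flox and interaction counts stayed 0 with any 1 library left out. RLE scaling, no count filter, the 10 CPM filter, all 42 libraries, the detected-genes covariate and the early and late term kept every one of the mTEC against cTEC counts within 1.5 times. The uncalled KO against Control differences near 0 changed sign. In cTEC Krt8 was 0.0132 with RLE and with DESeq2, 0.27 with controls pooled and 0.0004 with limma voom, and Krt8, Krt18 and Krt14 ranged from -0.38 to 0.85, -0.27 to 0.77 and -1.73 to 0.0269 with 1 library left out. In MHCII-low cells the term for the sets gave -0.16 (Krt8), -0.0121 (Krt14) and -0.32 (Krt5), the late set alone -0.53, -1.76 and -1.13, limma voom -0.0935 (Krt8) and -0.33 (Krt14), the detected-genes covariate -0.0578 (Krt8), and Krt18 was 0.14 with all 42 libraries, 0.29 with controls pooled and 0.0678 in the early set; Krt8 and Krt5 ranged from -0.0672 to 0.29 and -0.0701 to 1.04 with 1 library left out. In MHCII-high cells Krt18 was 0.155 with all 42 libraries, and Krt14 was -0.0895 with the covariate, -0.0338 with limma voom and -0.0109 to 0.24 with 1 library left out. Without length scaling the type II to type I ratio was 0.422, 0.511 and 0.568, and in early cTEC libraries 0.415. The keratin share of counts, split by set after the data were seen, was 0.368% in early and 0.127% in late cTEC, 0.254% in late MHCII-low and 0.877% in early MHCII-high libraries. With 2 to 7 libraries of 200 cells a group, absence of a keratin in 1 library says little.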
